A study of Mus musculus with 4 samples.

Results

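The genes described here set whether extracellular matrix takes up mineral, and there are 9 of them, among 50686 gene identifiers counted for the hip and 54838 for the knee. They were taken as a named list, and every one was found in all 4 libraries and held enough counts to be compared in both joints. Alpl and Phospho1 encode phosphatases that release phosphate, Enpp1 and Ank supply inorganic pyrophosphate (PPi), and Slc20a1 and Slc20a2 encode phosphate carriers. Mgp encodes an inhibitor of calcification, while Spp1 (osteopontin) and Ibsp (bone sialoprotein) encode acidic glycoproteins of mineralized matrix.

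As background, hydroxyapatite forms where phosphate outweighs PPi, which coats growing crystals and stops them. Alkaline phosphatase removes PPi and yields phosphate in the same step, so the balance between Alpl on one side and Enpp1 and Ank on the other is central to mineralization. Articular cartilage stays unmineralized at its surface, whereas the calcified zone beneath it and the subchondral bone do mineralize, and misplaced mineral is a feature of osteoarthritis. Cbfβ, encoded by Cbfb, is the partner of the DNA-binding proteins Runx1, Runx2 and Runx3 in cartilage and bone.

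Poly-A libraries were sequenced from RNA described as that of mouse articular cartilage, 1 for each of 4 conditions. By the study's text the hip material held cartilage alone, and that of the knee held bone as well. For the hip, the control library came from Cbfβf/f mice labelled as having had no treatment, without Cre, and the other from tamoxifen (TMX)-injected mice that carried Cbfβf/f with Col2α1-CreERT, in which TMX activates a Cre recombinase driven by the type II collagen gene. Both knee libraries came from Cbfβf/f mice with Aggrecan-CreERT, driven by the aggrecan gene, injected with oil as the control or with TMX. Floxed Cbfb was thus carried by all groups, and Cre by all but the hip control. The hip mice were 6 weeks old in the study's legends and 2 months in its text, and the knee mice were 12 weeks old. TMX was given for 5 days, starting at 2 weeks of age for the hip and at 6 weeks (legends) or 8 weeks (methods) for the knee. For the hip control, the text also writes WT, and the methods describe TMX or corn oil for Cbfβf/f mice without saying which applies to this library. The statistics section gives 5 mice per group and experiment without tying this to the libraries, so the number of mice behind each library is not given in the sources used here. Joint, tissue make-up, Cre line, age and, by the form of the count tables, counting program differ together between the pairs. By the labels TMX and Cre differ together within the hip pair. These cannot be told apart.

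The libraries held between 34264456 and 38473120 counts on genes, so a count of 3, taken as the floor, was 0.0780 to 0.0876 CPM (counts scaled to a library of 1000000). Cbfb, the gene targeted, had 2548 counts in the hip control and 2946 in the hip TMX library, and 3796 in the knee control and 4572 in the knee TMX library. After normalization its log2 ratio was 0.41 in the hip and -0.07 in the knee, and in the hip it turned to -0.27 (95% counting interval -0.35 to -0.20) once the trend over length and GC described below was taken out. The labels were thus not borne out by a clear loss of Cbfb counts, and a count over the whole gene cannot show the loss of an exon. The TMX libraries are named here by their treatment for that reason, and every direction below is that of the library so labelled. Of the partners, only Runx3 in the hip passed the rule for a changed gene given below, at -1.68 from 141 and 38 counts. Markers did not bear out the tissue label for the hip, where 16 chondrocyte genes took 0.0259% and 0.0106% of the counts in the control and TMX library and 14 skeletal muscle genes took 18.02% and 17.3%. In the knee the chondrocyte genes took 0.638% and 0.314%, muscle genes 1.21% and 2.74%, and 7 erythroid genes 9.97% and 4.92%. In such bulk RNA, fewer cells of a type and less RNA per cell cannot be told apart.

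Because Cbfβ acts with Runx proteins, the sequences before the start sites of the genes were searched for the letters of the Runx core, TGTGGT and TGCGGT, on both strands. RefSeq promoter entries of the build GRCm38.p6 were found for 7 genes, with 10 start sites in all, and Mgp and Slc20a2 had no entry. The 4 genes that hold the letters within 250 bases upstream are shown 5′ to 3′ in the direction of transcription, together with Ibsp, which lies near Spp1 and holds none. Capitals mark the letters, and ACCACA is TGTGGT read from the other strand.
Spp1, chr5:104434861-104435110, plus strand: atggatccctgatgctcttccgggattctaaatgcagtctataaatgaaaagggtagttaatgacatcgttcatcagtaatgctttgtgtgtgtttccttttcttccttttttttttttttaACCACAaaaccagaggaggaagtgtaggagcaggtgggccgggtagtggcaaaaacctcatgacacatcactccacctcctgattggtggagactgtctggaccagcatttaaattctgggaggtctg
Slc20a1, chr2:129198523-129198772, plus strand: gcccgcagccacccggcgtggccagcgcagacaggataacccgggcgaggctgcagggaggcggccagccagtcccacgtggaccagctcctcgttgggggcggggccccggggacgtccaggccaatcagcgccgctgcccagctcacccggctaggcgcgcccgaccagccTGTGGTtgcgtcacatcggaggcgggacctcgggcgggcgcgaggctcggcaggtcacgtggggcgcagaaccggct
Enpp1, chr10:24712160-24712409, minus strand: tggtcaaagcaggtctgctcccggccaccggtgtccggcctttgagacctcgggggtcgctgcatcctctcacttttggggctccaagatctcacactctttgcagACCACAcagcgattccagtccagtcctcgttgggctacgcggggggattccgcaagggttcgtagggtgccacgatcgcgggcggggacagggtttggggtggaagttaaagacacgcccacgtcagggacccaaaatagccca
Phospho1, chr11:95824250-95824499, plus strand: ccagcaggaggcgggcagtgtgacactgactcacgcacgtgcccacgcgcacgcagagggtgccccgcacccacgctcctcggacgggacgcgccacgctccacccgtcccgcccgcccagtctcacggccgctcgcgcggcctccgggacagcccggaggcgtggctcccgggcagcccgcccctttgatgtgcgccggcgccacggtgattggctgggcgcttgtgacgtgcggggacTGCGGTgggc
Ibsp, chr5:104299037-104299286, plus strand: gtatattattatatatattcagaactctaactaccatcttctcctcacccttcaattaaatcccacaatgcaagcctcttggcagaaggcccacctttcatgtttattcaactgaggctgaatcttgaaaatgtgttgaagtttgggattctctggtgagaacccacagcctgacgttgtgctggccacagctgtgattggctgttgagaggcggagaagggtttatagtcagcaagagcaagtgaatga
The match of Spp1 begins 128 bases before the start, that of Enpp1 144, that of Slc20a1 77 and that of Phospho1 10. Slc20a1 and Spp1 each have another start site listed, whose window holds no match, as do the windows of Alpl and Ank. TGTGGT occurred in 14.05% of all 32851 promoter windows of this length, TGCGGT in 5.10% and either in 18.6%. A match describes these letters and is not a binding site, and a window without one says nothing about the factor.

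The ratios compared the TMX library with the control of the same joint, after TMM normalization within the pair and with 0.5 added to each count. To be called changed, a gene needed 10 or more counts in the pair together, a log2 ratio beyond 1 or -1, and a 95% Clopper-Pearson interval clear of 0. This interval, given in brackets, covers counting error only. With 1 library per condition there is no replicate error and no test, and each ratio compares 2 libraries.

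In the hip, 4 of the 9 mineralization genes changed. Slc20a1 and Spp1 were higher in the TMX library and Alpl and Mgp were lower. That was 44.4% of the genes, beside 36.5% of all 19856 genes compared (20.2% higher and 16.3% lower), a share near the background. In the knee, 3 of the 9 changed, with Phospho1 higher and Mgp and Spp1 lower in the TMX library. That was 33.3%, beside 15.8% of 21131 genes (9.00% higher and 6.81% lower). The median log2 ratio of the 9 genes was -0.30 in the hip and 0.23 in the knee, beside 0.01 and 0.02 for all genes compared.

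Mgp was the gene called in the same direction in both joints, and Spp1 was called in opposite directions. By the counting interval alone, whatever the size, 3 genes were above and 5 below their control in the hip, beside 37.3% and 33.7% of all genes, and 5 and 3 in the knee, beside 31.9% and 29.7%. Of these, 2 genes had ratios above 0 in both pairs (Enpp1 and Slc20a1), 1 had ratios below 0 in both (Mgp), 4 pointed in opposite directions (Ank, Phospho1, Slc20a2 and Spp1), and for Alpl and Ibsp the interval of 1 pair reached 0. Of 17594 genes compared in both joints, 18.1% were above 0 in both, 12.9% below in both and 20.5% opposite. This tally depended on the length and GC trend described below, without which Enpp1 (-0.23 and 0.36) and Ibsp (-0.38 and 0.10) pointed in opposite directions, Phospho1 was above 0 in both pairs (0.25 and 1.54) and Alpl below 0 in both (-1.18 and -0.09). The plot of levels shows the 4 libraries of each gene side by side, and the plot of ratios shows both pairs.

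**Figure D1:**
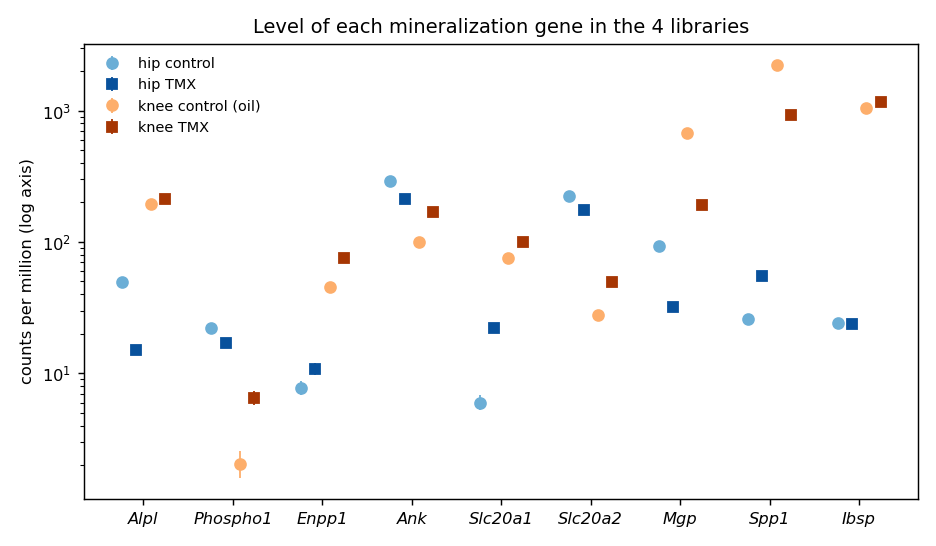
Level of each of the 9 genes in CPM on a log axis, with 1 point per library and bars for the 95% Poisson interval of counting error. Spp1 lies at 26.1 and 54.8 in the hip control and TMX libraries and at 2217 and 930.3 in those of the knee, while Phospho1, Ank and Slc20a2 lie higher in both hip libraries than in either knee library.

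**Figure D2:**
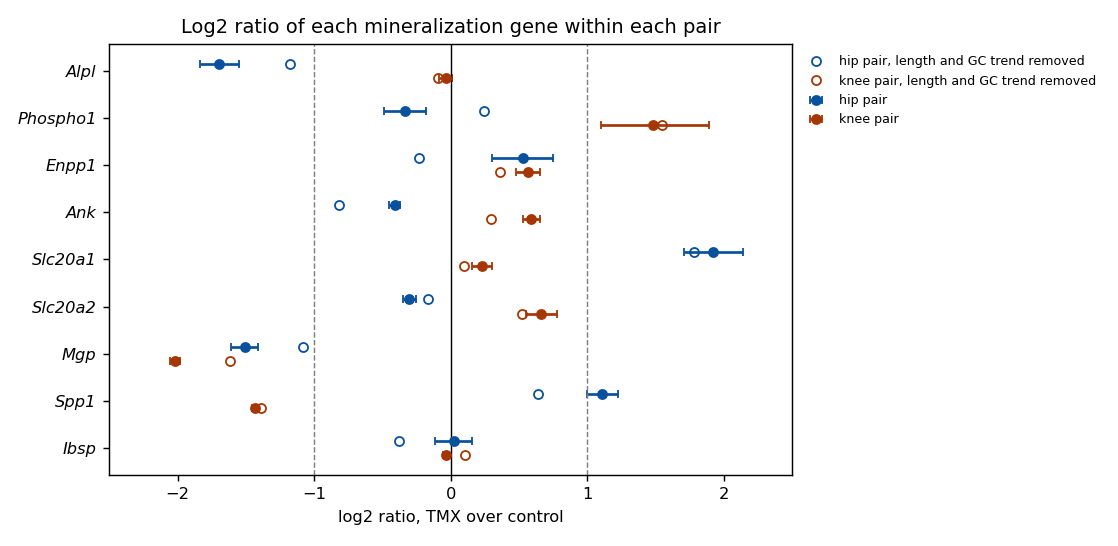
Log2 ratio of the TMX over the control library for each gene, hip in blue and knee in brown, with filled points and 95% counting intervals for the main values and open points once the trend over length and GC has been taken out. Dashed lines mark the size of 1 needed for a call. Mgp lies left of the line in both pairs, and Spp1 lies at 1.11 in the hip and -1.43 in the knee.

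Alpl (ENSMUSG00000028766, chromosome 4 of GRCm39, 137469039 to 137524102, minus strand) encodes tissue-nonspecific alkaline phosphatase, the enzyme that splits PPi outside the cell. It had 1919 counts in the hip control and 517 in the hip TMX library, or 49.9 (95% Poisson interval 47.7 to 52.2) and 14.9 CPM (13.7 to 16.3). In the knee it had 6627 and 8172 counts, or 193 and 214 CPM. The hip TMX library was the lowest of the 4, and both knee libraries stood well above those of the hip. The log2 ratio was -1.69 in the hip [-1.84 to -1.55], a level 3.23-fold lower, and -0.04 in the knee [-0.08 to 0.01]. Of all genes compared, 10.5% had a lower ratio in the hip and 46.4% in the knee.

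Phospho1 (ENSMUSG00000050860, chromosome 11 of GRCm39, 95715264 to 95722973, plus strand) encodes a phosphatase that frees phosphate from phosphocholine and phosphoethanolamine inside matrix vesicles. Its counts were 846 and 585 in the hip control and TMX library and 70 and 249 in those of the knee, or 22.0, 16.9, 2.04 and 6.51 CPM. Both hip libraries were above both knee libraries, and the knee control was the lowest of the 4. The ratio in the knee was 1.48 [1.10 to 1.90], or 2.80-fold higher with TMX, and that of the hip was -0.33 [-0.49 to -0.18], which turned to 0.25 [0.09 to 0.40] once the length and GC trend was taken out. In the annotation used, 30.3% of the exonic bases of Phospho1 are shared with Zfp652, Gm38958 or Abi3, and since the counting is not stated to use strand, its counts are uncertain. In the knee, 9 of 14 skeletal muscle genes and 4 of 8 adipocyte genes were called higher, beside 9.00% of all genes. The medians of these lists were 1.03 and 1.17, and the part of these cells in the result was not tested.

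Enpp1 (ENSMUSG00000037370, chromosome 10 of GRCm39, 24513812 to 24588057, minus strand) encodes the ectoenzyme that makes PPi from nucleoside triphosphates. It had 298 counts in the hip control and 375 in the hip TMX library, and 1544 and 2897 in the knee control and TMX library. These were 7.75, 10.8, 45.1 and 75.8 CPM. In each joint the TMX library was the higher, and the knee was above the hip. The ratios of 0.53 in the hip [0.31 to 0.75] and 0.57 in the knee [0.48 to 0.66] were both short of the size needed for a call, and the hip ratio turned to -0.23 [-0.46 to -0.01] once the length and GC trend was taken out.

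Ank (ENSMUSG00000022265, chromosome 15 of GRCm39, 27466558 to 27598709, plus strand) encodes the membrane protein through which cells release PPi or its precursor. Its counts were 11271 in the hip control, 7393 in the hip TMX library, 3404 in the knee control and 6492 in the knee TMX library. The levels were thus 293, 214, 99.3 and 170 CPM. The hip control was the highest and the knee control the lowest, so the TMX libraries of the joints lay closer together than the controls did. The ratio was -0.41 in the hip [-0.45 to -0.37] and 0.59 in the knee [0.53 to 0.65], and neither passed the rule for a call. Once the length and GC trend was taken out, the ratios were -0.82 and 0.30.

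The ratio of one gene to another within a library does not depend on how the libraries are scaled. Per kilobase of transcript, Alpl stood 17.2 times above Enpp1 in the hip control and 3.68 times above it in the hip TMX library, a log2 change of -2.22 (95% counting interval -2.48 to -1.96). In the knee the same ratio went from 11.5 to 7.54, a change of -0.61 (-0.71 to -0.50). Alpl over Ank went from 0.498 to 0.204 in the hip and from 5.69 to 3.68 in the knee, changes of -1.28 and -0.63. The transcript of Alpl, at 2.54 kb, is shorter than those of Enpp1 and Ank, at 6.78 and 7.42 kb. With the length and GC trend described below removed, an alternative chosen after seeing the data, the changes in the hip were -0.94 for Enpp1 and -0.36 for Ank, and in the knee -0.46 and -0.39. Alpl stood lower against both sources of PPi in both TMX libraries either way. In the knee the ratio of Alpl itself was -0.04, beside 0.57 for Enpp1 and 0.59 for Ank. The part of cell make-up in these changes was not tested.

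Slc20a1 (ENSMUSG00000027397, chromosome 2 of GRCm39, 129040256 to 129053536, plus strand) encodes PiT-1, a sodium-dependent phosphate carrier of most cells and of mineralizing chondrocytes. It had 230 counts in the hip control, or 5.98 CPM (95% Poisson interval 5.23 to 6.80), and 761 in the hip TMX library, or 22.0 CPM (20.5 to 23.6). The knee control had 2591 counts, or 75.6 CPM, and the knee TMX library 3849, or 101 CPM. The hip control was by far the lowest library. The log2 ratio of 1.92 in the hip [1.71 to 2.14] was the largest rise among the 9 genes, 3.79-fold, and 92.0% of all genes compared had a lower ratio. The knee ratio was 0.23 [0.16 to 0.30]. Of its exonic bases, 21.2% lie opposite genes of the other strand (Gm74587, Gm56350 and 9830144P21Rik), which leaves a part of its counts uncertain.

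Slc20a2 (ENSMUSG00000037656, chromosome 8 of GRCm39, 22966111 to 23059686, plus strand) encodes PiT-2, the related carrier. It had 8592 and 6068 counts in the hip control and TMX library, and 948 and 1900 in those of the knee. The levels of 223, 175, 27.7 and 49.7 CPM placed both hip libraries above both knee libraries, the reverse of Slc20a1. The ratios of -0.30 in the hip [-0.35 to -0.26] and 0.66 in the knee [0.55 to 0.78] did not reach the size for a call. They were -0.16 and 0.52 once the length and GC trend was taken out. Of its exonic bases, 7.53% lie opposite Smim19.

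The carrier with the higher level per kilobase was thus not the same in the hip and the knee libraries. Per kilobase, Slc20a1 was at 0.0298 of Slc20a2 in the hip control and at 0.140 in the hip TMX library, a log2 change of 2.23 (95% counting interval 2.01 to 2.45). In the knee Slc20a1 was the more abundant carrier, at 3.04 times Slc20a2 in the control and 2.26 times in the TMX library, a change of -0.43 (-0.57 to -0.30).

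Mgp (ENSMUSG00000030218, chromosome 6 of GRCm39, 136849433 to 136852821, minus strand) encodes matrix Gla protein, a vitamin K-dependent protein made by chondrocytes and vascular smooth muscle that keeps cartilage and arteries from calcifying. It had 3582 counts in the hip control and 1097 in the hip TMX library, or 93.1 (95% Poisson interval 90.1 to 96.2) and 31.7 CPM (29.9 to 33.7). In the knee it had 23296 and 7266 counts, or 680 (671 to 689) and 190 CPM (186 to 194). The TMX library was the lower one in each joint. The ratio was -1.51 in the hip [-1.61 to -1.41] and -2.02 in the knee [-2.06 to -1.98], or 2.85-fold and 4.06-fold lower, and in the knee only 2.63% of all genes compared had a lower ratio.

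Values of other lists stood beside that of Mgp. For marker lists too, 36.5% of all genes in the hip and 15.8% in the knee are the background of the calls. The summed share of the 16 chondrocyte genes was lower with TMX in both joints, as given above, and 12 of the 16 changed to lower levels in the knee. In the hip 5 of 14 with enough counts were lower and 2 higher. The share of 5 vascular smooth muscle genes went from 0.0257% to 0.0150% in the hip and from 0.0108% to 0.0152% in the knee, where none of them was called lower. The part of these cells in the values of Mgp was not tested. Mgp is also the shortest of the 9 transcripts, at 0.609 kb, and transcripts of such length had medians below 0 in both pairs, as described below. With that trend removed its ratio was -1.08 in the hip and -1.61 in the knee, still past the size for a call.

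Spp1 (ENSMUSG00000029304, chromosome 5 of GRCm39, 104582165 to 104589235, plus strand) encodes osteopontin, which binds hydroxyapatite and is also a ligand of integrins and Cd44. Osteoblasts, osteoclasts, hypertrophic chondrocytes and macrophages all make it. Its counts were 1005 in the hip control and 1895 in the hip TMX library, or 26.1 (95% Poisson interval 24.5 to 27.8) and 54.8 CPM (52.4 to 57.3). In the knee it had 75953 and 35562 counts, or 2217 (2201 to 2232) and 930.3 CPM (920.6 to 940.0). The TMX library was the higher one in the hip and the lower one in the knee, and even the lower knee library was well above both of the hip.

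The log2 ratio of Spp1 was 1.11 in the hip [1.00 to 1.22] and -1.43 in the knee [-1.45 to -1.42], or 2.16-fold higher and 2.702-fold lower. The hip value lay close to the size for a call and fell to 0.64, short of it, once the length and GC trend was taken out. That of the knee was then -1.39. In the knee 4.60% of all genes compared had a lower ratio. In the annotation used, 12.7% of the exonic bases are shared with Gm42793 on the same strand.

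Ibsp (ENSMUSG00000029306, chromosome 5 of GRCm39, 104447037 to 104459338, plus strand) encodes bone sialoprotein, which nucleates hydroxyapatite and is made by osteoblasts and hypertrophic chondrocytes. It had 926 and 820 counts in the hip control and TMX library, or 24.1 and 23.7 CPM, and 35722 and 44074 in those of the knee, or 1043 and 1153 CPM. Within each joint the libraries were near each other, and the knee was far above the hip. The ratio was 0.02 in the hip [-0.12 to 0.16], but -0.38 [-0.51 to -0.24] once the length and GC trend was taken out. It was -0.04 in the knee [-0.06 to -0.02] and turned to 0.15 when only library size was used for scaling and to 0.10 without the trend.

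Spp1 and Ibsp therefore parted in both joints. Per kilobase they were level in the hip control, where Spp1 stood at 1.01 times Ibsp, and in the hip TMX library it stood at 2.15 times, a log2 change of 1.09 (95% counting interval 0.92 to 1.27). In the knee Spp1 went from 1.98 times Ibsp in the control to 0.750 times in the TMX library, a change of -1.40 (-1.43 to -1.37). The order of the pair was thus reversed in the knee TMX library.

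Both belong to the SIBLING family (small integrin-binding ligand, N-linked glycoproteins), whose 5 genes lie on 1 strand of chromosome 5 within 271 kb, in the order Dspp, Dmp1, Ibsp, Mepe and Spp1. The other members were added for their position, with their values known. Dmp1, a phosphoprotein of osteocytes, had 329 and 413 counts in the hip, a ratio of 0.53 [0.31 to 0.74]. In the knee it had 6883 and 3960 counts and was called lower, at -1.14 [-1.19 to -1.08]. Mepe, another osteocyte product, was called higher in the hip from 22 and 53 counts, at 1.45 [0.72 to 2.25], while its 1375 and 2520 counts in the knee gave 0.53 [0.44 to 0.63]. Dspp was at 0 in both hip libraries and had 29 and 14 counts in the knee, a ratio of -1.36 [-2.42 to -0.42]. Neighbours along the chromosome did not move as a block: in the knee, Ibsp and Mepe lie between Dmp1 and Spp1, which were both lower.

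**Figure D3:**
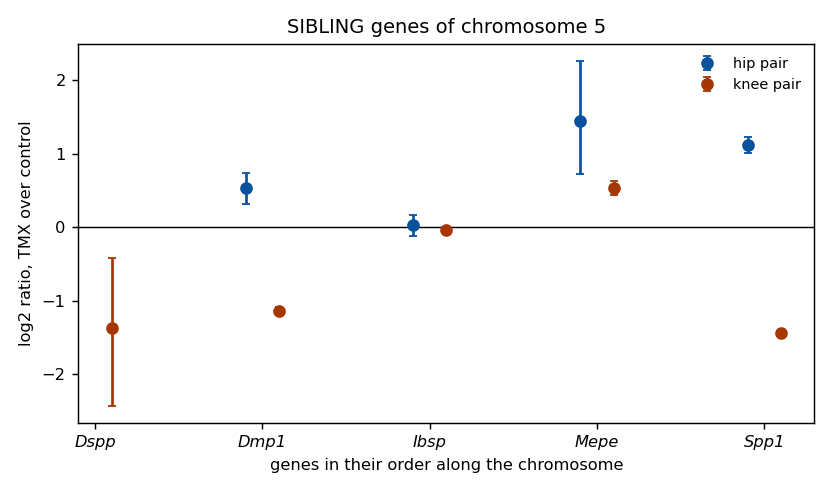
Log2 ratio of the TMX over the control library (vertical axis) for the SIBLING genes in their order along chromosome 5 (horizontal axis), hip in blue and knee in brown, with 95% counting intervals. Dspp had no counts in the hip and is drawn for the knee alone. In the knee Dspp, Dmp1 and Spp1 lie below -1, while Ibsp lies at -0.04 and Mepe at 0.53.

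Markers of the cells that make osteopontin were set beside these values. The 9 osteoclast genes took 0.345% of the counts in the knee control and 0.192% in the TMX library, with 5 of 9 called lower. In the hip they took 0.00678% and 0.00573%, and of the 8 with enough counts 2 were higher, Atp6v0d2 (18 and 100 counts) and Tnfrsf11a (31 and 55), and 1 was lower, Dcstamp (18 and 3). The 12 osteoblast and osteocyte genes took 0.173% and 0.0807% in the knee, with 4 lower and 2 higher, and 0.0153% and 0.00565% in the hip, with 4 lower and 1 higher. The near-identical Bglap and Bglap2 carried most of this difference. Without them, an alternative chosen after seeing the data, the other 10 genes took 0.0488% and 0.0426% in the knee and 0.00855% and 0.00512% in the hip. The 5 hypertrophic chondrocyte genes took 0.143% and 0.0616% in the knee, with 4 of 5 lower, and 0.00459% and 0.00270% in the hip, with 2 lower. The 8 macrophage genes took 0.0653% and 0.0624% in the knee, with none called, and 0.0162% and 0.00848% in the hip, with 5 lower and 1 higher. The only marker of these lists at 0 in any library was Fgf23, in the knee control. The part of these cells in the values of Spp1 and Ibsp was not tested.

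**Figure D4:**
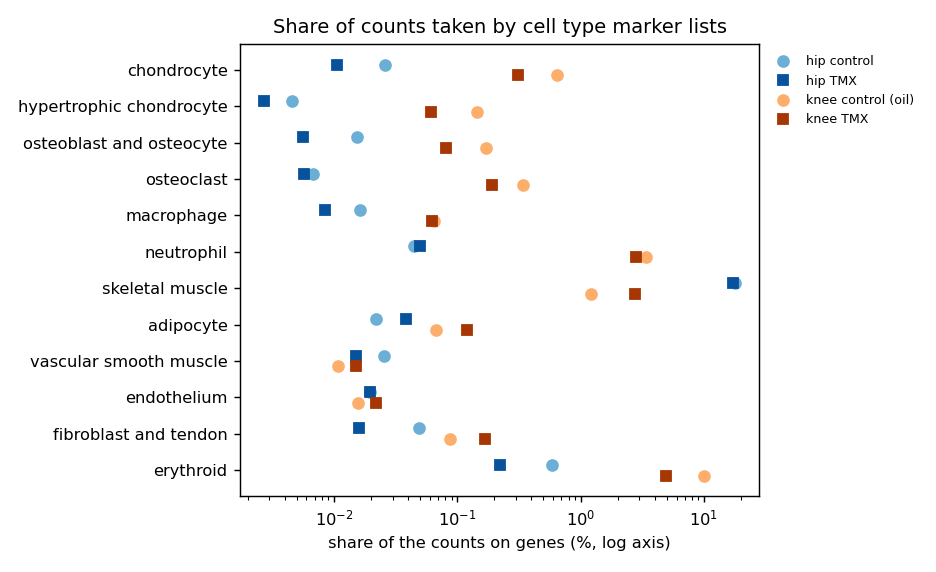
Share of the counts on genes taken by each of 12 cell type marker lists, in percent on a log axis, with 1 point per library. Muscle genes take 18.02% and 17.3% in the hip libraries, and the chondrocyte, osteoblast and osteoclast lists lie lower in the TMX library of each joint.

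Of the other marker lists, the share of 8 neutrophil genes was 0.0450% and 0.0498% for the hip control and TMX library, against 3.42% and 2.80% for those of the knee, and none was called. The erythroid share in the hip was 0.588% and 0.222%, and 4 of its 7 genes were lower in each joint. The 8 adipocyte genes took 0.0219% and 0.0387% in the hip, with 3 higher and 2 lower, and 0.0679% and 0.120% in the knee, with 4 higher. The 6 fibroblast and tendon genes took 0.0492% and 0.0160% in the hip, with 4 lower, and 0.0868% and 0.169% in the knee, with none called. The 5 endothelial genes took between 0.0156% and 0.0221% in all libraries, with none called. Of the muscle genes, 1 was higher and 2 lower in the hip, and of the vascular smooth muscle genes 2 were lower in the hip and 1 higher in the knee.

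Compared per kilobase of transcript, the order of the 9 genes differed between the joints. In the hip control, Mgp led at 152.9 CPM per kb, followed by Slc20a2 at 60.4, Ank at 39.5 and Alpl at 19.7. Spp1, Ibsp and Phospho1 came next at 11.7, 11.6 and 11.2 and did not differ beyond counting error, and Slc20a1 and Enpp1 closed the order at 1.80 and 1.14. In the hip TMX library Alpl dropped from the fourth to the eighth place, at 5.89, and Spp1 took the fourth, at 24.6.

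In the knee control the matrix proteins came first, with Mgp at 1116 CPM per kb, Spp1 at 994 and Ibsp at 503, then Alpl at 76.2. Slc20a1 followed at 22.8, Ank at 13.4, Slc20a2 at 7.49, Enpp1 at 6.65 and Phospho1 at 1.04. In the knee TMX library Ibsp led at 557, Spp1 was at 417 and Mgp came next at 312, while the places below these were the same as in the control.

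Between the control libraries, Spp1 was 84.9-fold higher in the knee than in the hip, Ibsp 43.3-fold, Slc20a1 12.6-fold, Mgp 7.30-fold, Enpp1 5.82-fold and Alpl 3.88-fold. Phospho1 was 10.8-fold, Slc20a2 8.07-fold and Ank 2.95-fold higher in the hip. These are ratios of CPM across files that, by their form, came from different counting programs and annotations, set side by side and not compared further.

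The median log2 ratio of all genes varied with transcript length in both pairs, and above about 1.19 kb it mostly rose. Below that length the hip medians went the other way, from -0.16 at 0.394 kb down to the lowest bin. Over 20 bins of length, the lowest median was -0.43 at 1.19 kb and the highest 0.79 at 9.86 kb in the hip, and in the knee they were -0.44 at 0.530 kb and 0.24 at 9.64 kb. With this trend and that over GC content removed, the hip ratio of Alpl was -1.18 and that of Slc20a1 1.79, both still past the size for a call, as was Phospho1 in the knee at 1.54. The hip ratios of Enpp1 and Phospho1, 0.53 and -0.33 before, turned to -0.23 and 0.25, so their direction in the hip depended on this step.

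**Figure D5:**
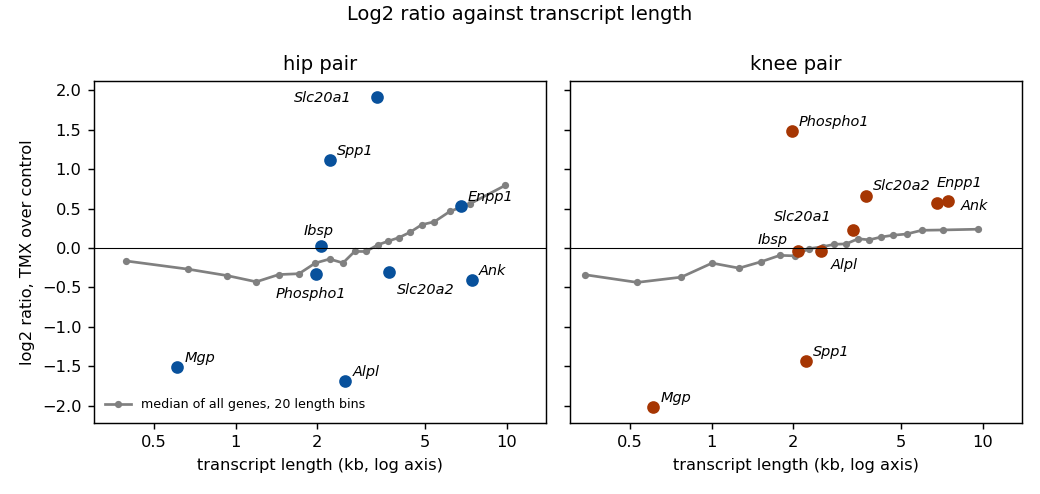
Log2 ratio of the TMX over the control library (vertical axis) against transcript length in kb (horizontal log axis), with the hip pair on the left and the knee pair on the right. The grey line joins the medians of 20 bins of all genes and coloured points are the 9 genes. The short transcript of Mgp lies far below the line in both panels, and Slc20a1 in the hip and Phospho1 in the knee lie far above it.

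Genes that act beside these 9 were described from 6 lists, whose counts stand against the 36.5% of all genes called in the hip and 15.8% in the knee. Of the 8 genes of PPi and nucleotide handling, 1 was lower in the hip, Abcc6, the transporter needed for the release of ATP from liver cells, with 31 and 6 counts and a ratio of -2.08 [-3.72 to -0.89]. In the knee Abcc6 had 2 and 16 counts and was called higher, at 2.38 [0.57 to 5.82], a call lost when each library had to hold 10 counts. Ppa1, a soluble pyrophosphatase that splits PPi inside the cell, was lower in the knee, with 5989 and 1412 counts and a ratio of -2.42 [-2.51 to -2.34]. Its hip ratio was -0.65. In the hip, 3 genes of this list were called with the trend removed and 0 when each library had to hold 10 counts, beside 1 here. The list's median was -0.31 in the hip and -0.04 in the knee, and -0.69 and -0.13 with the trend removed.

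Of 10 genes for phosphate transport and its regulation, 8 held enough counts in each joint and Slc34a3 was at 0 throughout. In the hip 3 were lower, 37.5% of those compared and near the share of all genes. These were Fam20c, the kinase of secreted phosphoproteins that include the SIBLING products, with 1401 and 418 counts (-1.55 [-1.71 to -1.39]), Galnt3, which glycosylates Fgf23, with 107 and 17 counts (-2.42 [-3.29 to -1.71]), and Slc34a1, the phosphate carrier of kidney, with 36 and 1 counts (-4.41 [-10.3 to -2.402]), whose call was lost when each library had to hold 10 counts. In the knee 2 were called higher, both at low counts, and 0 were called when each library had to hold 10. Fgf23, the bone hormone of phosphate loss, had 0 and 35 counts, at least 9.22-fold higher when the control library is set at the floor of 3 counts, and its coreceptor Kl had 2 and 14 counts (2.20 [0.35 to 5.65]). The median of this list was -0.71 in the hip and 0.21 in the knee, also with Fgf23 at its bound. After trend removal it was -0.94 in the hip and 0.03 in the knee, so the knee value depended on this step.

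None of the 4 genes of matrix vesicle proteins was called in either joint. By the counting interval alone, 4 were below their control in the hip, and 3 were below and 1 above in the knee. Of all genes, 33.7% in the hip and 29.7% in the knee were below. The ratio of Anxa6 was -0.38 for the hip, from 11727 and 7843 counts, and 0.20 for the knee, from 4158 and 6054. That of Anxa2 was -0.71 for the hip, from 3928 and 2096, and -0.41 for the knee, from 16168 and 15444. The median of the list was -0.71 in the hip and -0.37 in the knee. After trend removal it was -0.34 in the hip and -0.32 in the knee. The ratio of Anxa6 was then -0.13 for the hip and 0.13 for the knee, and that of Anxa2 -0.25 and -0.28. The annexins bind calcium at membranes and are made by many cell types.

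Bone matrix proteins of mineralization were the list with the most called genes. It shares Bglap, Bglap2, Dmp1 and Mepe with the osteoblast and osteocyte list, and Col10a1 with the hypertrophic chondrocyte list. Of 9 genes, 8 held enough counts in the hip, of which 6 were lower and 1, Mepe, was higher. With a log2 ratio of at least 2 required, 4 were called in the hip. In the knee 7 of 9 were lower, or 5 with library size alone used for scaling and 0 with a log2 ratio of at least 2 required. Col1a1, a chain of type I collagen, was at -2.23 in the hip [-2.27 to -2.18], from 29148 and 5430 counts, and at -1.06 in the knee [-1.07 to -1.05], from 315688 and 191508. Col1a2, the other chain, was at -2.05 in the hip and -1.32 in the knee. Bglap, osteocalcin, was at -3.50 in the hip, from 1482 and 114 counts, and at -1.95 in the knee, from 27984 and 9156, with the reservation that its near-identical copy Bglap2 can share reads. Sparc, osteonectin, was lower in the hip at -1.98 and had a ratio of -0.66 in the knee. The median of the list was -2.01 in the hip and -1.32 in the knee, and -1.79 and -1.35 with the trend removed. Ibsp was at 0.02 and -0.04, and at -0.38 and 0.10 with the trend removed. The fibroblast and tendon list had a median of -1.48 in the hip and 0.61 in the knee. The part of each cell type in the values of the bone matrix list was not tested.

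The vitamin K-dependent carboxylation on which Mgp depends was described by 6 genes. None was called in the hip, where Gas6, a Gla protein that binds receptor kinases, held the most counts, 10734 and 8762, at a ratio of -0.10. That ratio turned to 0.27 [0.23 to 0.31] once the length and GC trend was taken out. In the knee 2 were lower: Ucma, a Gla protein of cartilage like Mgp, with 1223 and 474 counts (-1.71 [-1.86 to -1.55]), and Vkorc1, which recycles vitamin K, with 358 and 201 counts (-1.17 [-1.43 to -0.92]). With library size alone used for scaling 1 of them was called. The ratio of Gas6 in the knee was 0.05, and -0.01 [-0.05 to 0.04] with the trend removed. The medians were -0.18 in the hip and -0.02 in the knee, and -0.52 and -0.21 with the trend removed.

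Of the 7 receptor genes of osteopontin and bone sialoprotein, 2 were higher and 1 lower in the hip, or 42.9%, a share near that of all genes. Itgb1, the integrin β1 chain, had 4748 and 8449 counts (1.03 [0.98 to 1.08]), Itga4 had 77 and 135 (1.00 [0.59 to 1.43]) and Itgb5 had 10636 and 3893 (-1.25 [-1.31 to -1.20]). None of these 3 hip genes passed the rule once the trend over length and GC content was removed. In the knee none of the 7 was called, or 1 with library size alone used for scaling. The receptors with the most counts there were Itgb3, with 10238 and 17093 and a ratio of 0.40, and Itgb1, with 8947 and 12911 and a ratio of 0.19. The medians were 0.32 in the hip and 0.20 in the knee, and -0.29 and 0.04 with the trend removed, so that of the hip changed its sign.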

How the data were processed

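Poly-A RNA of hip and knee articular cartilage was sequenced, with 1 library per condition. The study's methods name TRIzol extraction and alignment to GRCm39 with STAR, whereas the submitters' processing notes list mm10, FastQC 0.11.3 and STAR 2.0. The extraction note in the labels names osteoblasts. The authors deposited raw read counts by Ensembl identifier, as whole numbers. The hip tables end with the summary lines of a counting program (25.8% and 24.6% of all listed), which were left out. The knee tables hold no such lines and list other identifiers, and were taken to come from another program, which the notes do not name.

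Identifiers were matched to GENCODE symbols (91.8% for the hip, 92.6% for the knee). Counts were scaled by TMM within each pair (edgeR 4.0.16, R 4.3.3), and DESeq2 1.42.0 size factors were an alternative. The paired DESeq2 test of the study could not be run with 1 library per condition. Other steps used Python 3.11.15, scipy 1.17.1 and pandas 2.3.3. CPM divides by the counts on genes alone. The length and GC trend was removed by subtracting the median ratio of 20 bins of transcript length, then of GC content, in 2 rounds.

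Named were the 9 genes, Cbfb and its Runx partners, the SIBLING neighbours, and at most 4 genes of each list and joint, either those with the most counts or, for a count of 5 or fewer called, those called, with their values in the other joint. The genes, lists and alternatives were chosen with earlier results of these data known. Steps were tested on simulated data.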

Additional observations from a re-analysis of the deposited data

Results flagged for a closer look

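For 4 genes the ratio of the TMX over the control library had opposite signs in the joints, each beyond its counting interval, as had 20.5% of the 17594 genes compared in both joints. Spp1 had a log2 ratio of 1.11 in the hip and -1.43 in the knee. Phospho1 had -0.33 in the hip and 1.48 in the knee, Ank -0.41 and 0.59, and Slc20a2 -0.30 and 0.66. With 1 library per condition, the difference between the joints was not tested. Counting, tissue make-up, age, type of control, Cre line and joint cannot be told apart. Once the length and GC trend was taken out, the hip ratio of Phospho1 was 0.25, so that its signs were then the same in both joints, while Enpp1 then had opposite signs, at -0.23 and 0.36, as had Ibsp, at -0.38 and 0.10.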

How the results depend on the processing

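No paired analysis was possible because each condition has 1 library and the labels carry no replicate numbers. Over 3 other scalings, another added count and trend removal, the 9 genes gave 65 ratios that moved by less than their counting interval, 21 that moved further and 4 that reversed, counted where the main interval was clear of 0. These were the hip ratios of Enpp1 (-0.23) and Phospho1 (0.25) with the trend removed, and the knee ratio of Ibsp with library size alone (0.15) and with the trend removed (0.10). From intervals that held 0, the knee ratio of Alpl went to 0.14 with library size alone, and the hip ratio of Ibsp to -0.38 with the trend removed, -0.02 with library size alone and -0.01 with DESeq2 size factors. Library size alone shifted the knee median of all genes by 0.18, set that of the 9 genes to 0.41 and raised the share of higher genes among those changed from 56.9% to 71.3%. Trend removal set the knee median of the 9 genes to 0.10. In the hip, higher genes were 55.4% of those changed, 47.0% with the trend removed and 68.4% with at least 10 counts in each library. By the interval alone 8 of the 9 genes were called in each joint, and with a log2 ratio of at least 2 none (0) in the hip and 1 (Mgp) in the knee. Of all genes, 7252 changed in the hip, but 4548 with at least 10 counts in each library, 14091 by the interval alone and 3146 with at least 2, and in the knee 3342, but 2013, 13024 and 1160. With the trend removed, Spp1 in the hip was no longer called, leaving 3 genes there. Depth did not limit the 9 genes, since the fewest counts were 70 (Phospho1, knee control), but differences between animals could not be measured.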

Other observations

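The genes whose levels over the 4 libraries lay nearest to those of each mineralization gene were sought among 13904 genes, by the distance between centred values of log2(CPM + 0.1). This describes 4 libraries, and counts of the hip and knee appear to come from different programs. Nearest to Spp1 were Gm8113, Retnlg and Klrd1, at distances of 0.41, 0.45 and 0.47. Gm8113 had 5 and 10 counts and Klrd1 0 and 2 in the hip, so their distances depend on the added 0.1 CPM. Retnlg, a gene of neutrophils, had 616 and 1654 counts in the hip control and TMX library and 47321 and 29041 in those of the knee. Nearest to Ibsp were Gm14743, S100a4 and Cd177, at 0.06, 0.11 and 0.11, of which Gm14743 was at 0 in both hip libraries, where the added 0.1 CPM sets its values. S100a4 had 12 and 10 counts in the hip, so the added value bears on its distance too. Cd177, another neutrophil gene, had 443, 363, 16919 and 21817 counts in the same order.

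Nearest to Mgp were C1qtnf3, Bdh2 and Dsg2, at 0.42 to 0.47. In the hip C1qtnf3 had 36 and 14 counts, Bdh2 43 and 18 and Dsg2 10 and 3, so the added 0.1 CPM bears on these distances. By these distances, the nearest genes of Mgp and Spp1 lay further off than those of the other 7 genes. For Alpl they were Armc7, C1qtnf12 and Srpx2 (0.20 to 0.22), for Phospho1 Tom1, Gm32352 and Atpaf1 (0.07 to 0.15), for Enpp1 Slc2a3, Fam217b and Mast3 (0.08 to 0.10), and for Ank Echdc3, Miga2 and Zdhhc8 (0.08 to 0.09). Slc20a1 had Gnai3 and Osbpl8 near it (0.14 and 0.16), and for Slc20a2 they were Akap1, 4732491K20Rik and Atp1b1 (0.05 to 0.09). Tom1 had 2298, 1658, 202 and 726 counts, and Akap1 5798, 3935, 609 and 1238. Gm32352 had 8 counts in the knee control, so the added 0.1 CPM bears on its distance as well.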
